A study of Homo sapiens with 6 samples.

Results

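RAB GTPases are the small GTPases that give membrane compartments their identity. In the human annotation, 63 protein-coding genes have a symbol made of RAB, a number and at most 1 further letter, and all 63 are among the 67060 genes of the count table. Of these, 56 passed a filter on low counts and were tested among 24500 genes, while 7 (*RAB6C*, *RAB6D*, *RAB7B*, *RAB17*, *RAB19*, *RAB37* and *RAB38*) held at most 13 counts in any library. The cells were SH-SY5Y, a human neuroblastoma line. They were infected with 0.5 µl of an adenovirus and collected 24 h later. The control group received Ad CMV GFP (3 libraries, replicates 1, 3 and 4). The other group received Ad CMV 3xFlag-*Esrrg* (3 libraries, replicates 2, 3 and 4), in which the viral CMV promoter drives the tagged mouse coding sequence of *Esrrg*. This gene encodes ERRγ, an orphan nuclear receptor. Its libraries are called treated and those with Ad CMV GFP controls. Both groups thus carry an adenovirus and a CMV-driven transgene in 1 established line, and uninfected cells are not among the libraries analysed here. Every value below is listed in the order Ad CMV GFP replicates 1, 3 and 4, then Ad CMV 3xFlag-*Esrrg* replicates 2, 3 and 4.

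A RAB protein is a switch. Guanine nucleotide exchange factors (GEFs) load it with GTP at its membrane, GTPase-activating proteins (GAPs) turn it off, and the loaded form recruits effectors such as tethers, motors and adaptors. Rab escort proteins and a geranylgeranyl transferase attach its lipid anchor, and GDP dissociation inhibitors (GDIs) carry the inactive protein through the cytosol. In neurons the family is known for synaptic vesicle release, endosomal sorting and lysosomal transport. Several members are phosphorylated by LRRK2, a kinase mutated in inherited Parkinson disease, and *RAB29*, *RAB32* and *RAB39B* have themselves been linked to that disease.

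The libraries held 24969759 to 29700980 counts on genes with Ad CMV GFP and 26513620 to 40859666 with Ad CMV 3xFlag-*Esrrg*. Human *ESRRG* (ENSG00000196482), on which reads of the mouse transgene can be counted where they match, had 83.6, 90.4, 86.9, 570, 772 and 778 normalized counts per 1000000 (CPM), a log2 fold change of 3.02 (SE 0.14). Reads assigned to no gene were 52.2%, 51.3% and 51.6% of all reads with Ad CMV GFP, and 46.6%, 31.6% and 29.5% with Ad CMV 3xFlag-*Esrrg*, and ambiguous reads were 4.55% to 4.87% against 5.69% to 9.84%. Ad CMV 3xFlag-*Esrrg* replicate 2 lay between the other libraries of its group and the controls in both shares. Both shares move with the groups. Noradrenergic neuroblastoma markers were present with summed levels of 920 to 981 CPM against 657 to 852 CPM, with 1 of 11 tested markers higher and 4 lower. *TH* and *CHGA* were listed at 0 in all libraries. Whether their reads could be counted is not known, so this is not read as absent expression. Mesenchymal markers summed to 8304 to 8527 CPM against 8430 to 9429 CPM (0 of 12 higher, 2 lower). At the same cutoffs, which are given below, 25.9% of tested protein-coding genes were higher and 12.4% lower. The part of these shifts in reads and markers in the results below was not tested. A fit with the share of unassigned reads as a covariate is given as an alternative. Since that share moves with the groups, the fit cannot separate it from the treatment. In such bulk libraries, fewer cells of a type and less RNA per cell cannot be told apart.

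To examine which RAB genes responded to *Esrrg* overexpression, a gene was called higher or lower at a Benjamini-Hochberg adjusted p below 0.05 over all tested genes (edgeR's quasi-likelihood test) and a change of at least 1.5-fold. With Ad CMV 3xFlag-*Esrrg*, 12 of the 56 RAB genes were higher (21.4%) and 5 were lower (8.93%). Among all 24500 tested genes 17.3% were higher and 16.8% lower, and among the 13746 tested protein-coding genes 25.9% were higher and 12.4% lower. The share of RAB genes called in either direction, 30.4%, was thus below that of all tested genes, 34.1%, and of protein-coding genes, 38.3%. The 12 genes that rose were *RAB20*, *RAB3A*, *RAB32*, *RAB35*, *RAB5C*, *RAB1B*, *RAB30*, *RAB6B*, *RAB26*, *RAB11B*, *RAB24* and *RAB7A*. The 5 that fell were *RAB27B*, *RAB22A*, *RAB3C*, *RAB4B* and *RAB40A*. The levels of the groups did not overlap for any of these 17 genes. Without regard to a call, 21 RAB genes were higher and 15 lower without overlap, and 41.9% and 28.4% of tested protein-coding genes were. The median log2 fold change was 0.21 over the RAB genes, 0.12 over protein-coding genes and -0.10 over all tested genes, and scaling by library size alone gave -0.12, -0.20 and -0.42.

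**Figure D1:**
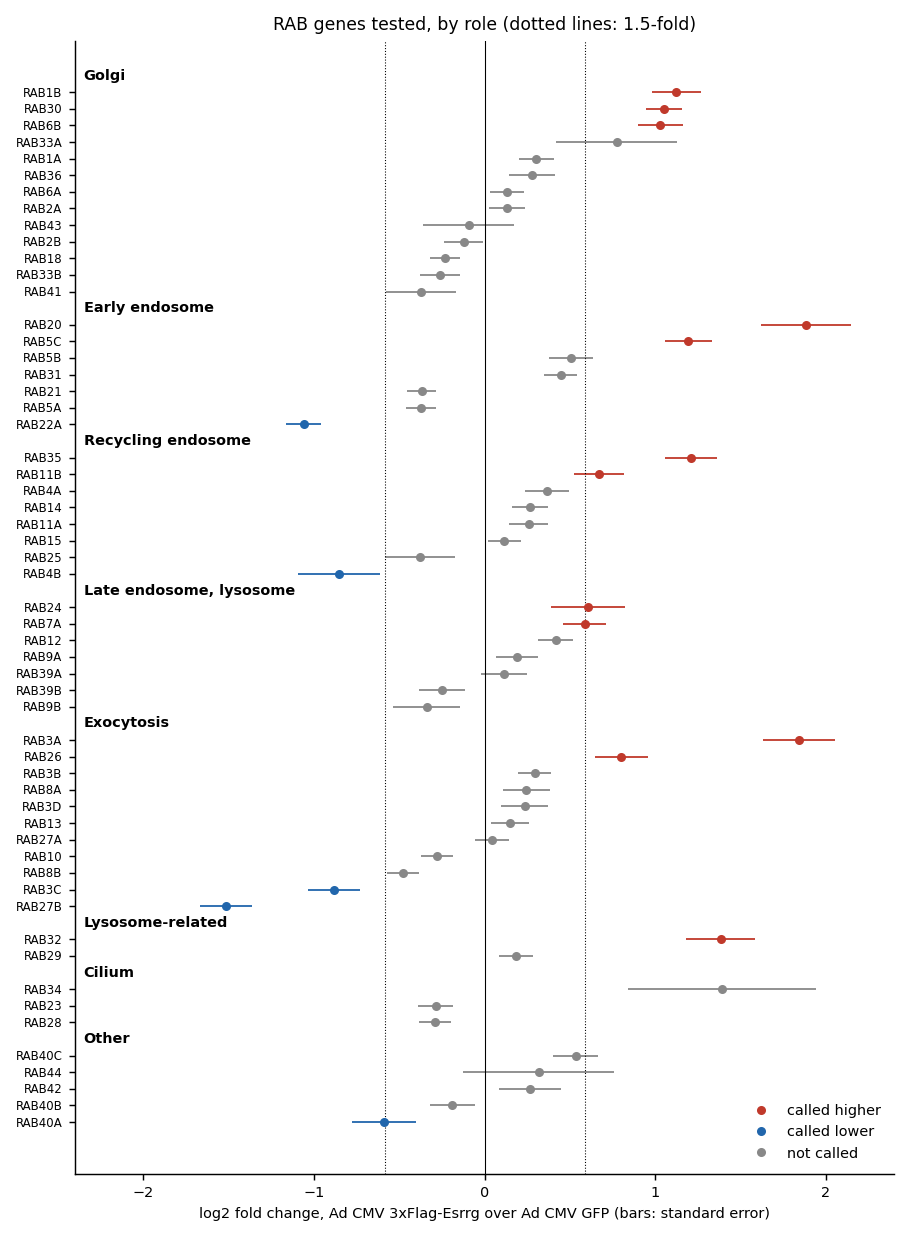
Log2 fold change (x axis) of each of the 56 tested RAB genes, grouped by the compartment the protein is known for. Points are estimates of edgeR's quasi-likelihood fit over 3 libraries a group, bars are standard errors and dotted lines mark 1.5-fold, with 12 genes called higher in red, 5 called lower in blue and 39 not called in grey. Higher and lower genes stand side by side within the early endosome, recycling and exocytosis groups.

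Leaving out Ad CMV 3xFlag-*Esrrg* replicate 2 raised the number of higher RAB genes to 19, where 34.1% of protein-coding genes were higher. Leaving out Ad CMV GFP replicate 4 or Ad CMV 3xFlag-*Esrrg* replicate 3 reduced the lower ones to 3, with backgrounds of 11.5% and 10.2%. Within its group, Ad CMV 3xFlag-*Esrrg* replicate 2 had the lowest level of 11 of the 12 genes that rose and the highest level of 4 of the 5 that fell. With the share of reads assigned to no gene as a covariate, 6 RAB genes were higher and 3 lower, where 9.48% and 6.93% of protein-coding genes were. With library size as the only scaling, the split became 8 higher and 13 lower RAB genes, against 13.5% and 25.8% of protein-coding genes. The call of *RAB1B*, *RAB3A*, *RAB5C*, *RAB20*, *RAB30*, *RAB35*, *RAB22A* and *RAB27B* was also made in all 16 alternatives that kept the same cutoffs. These alternatives reuse the same libraries, and those with the replicate number as a block compare the groups by replicates 3 and 4 alone. Because 3 libraries against 3 allow no exact permutation p under 0.1 (two-sided), all calls come from the model fitted over all genes. The labels do not say that the libraries came from separate cultures, so the p-values measure the spread between these libraries.

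Per kilobase of exon, the highest RAB levels in the control cells were those of *RAB10* (31.5 CPM per kilobase), *RAB1A* (27.2), *RAB7A* (25.4), *RAB14* (22.4), *RAB6A* (21.7), *RAB11A* (20.8) and *RAB32* (20.4). These proteins serve exocytosis, Golgi, late endosome, recycling and lysosome-related routes, so no single compartment led. The order depends on the exon length used, which is 7194 bases for *RAB7A* and 1065 for *RAB32*. In CPM, *RAB7A* was first with means of 183 in the control group and 274 in the treated group. *RAB32* had 21.7 and 56.6 CPM. With standard deviations of 0.19 to 2.33 CPM per kilobase over 3 libraries, *RAB6A*, *RAB11A* and *RAB32* lay within their spread of each other. With Ad CMV 3xFlag-*Esrrg*, *RAB32* took the first place at 53.2 CPM per kilobase (SD 16.1), *RAB7A* the second at 38.1 (SD 6.39) and *RAB1A* the third at 33.5 (SD 3.72), while *RAB10* stood at 25.9 (SD 2.08). The standard deviations of *RAB32* and *RAB7A* overlap, as do those of *RAB7A* and *RAB1A*. In the control group 53 of the 63 genes reached 1 CPM and 39 reached 10 CPM. All RAB genes together took 0.240% to 0.245% of the gene counts in the control libraries and 0.224% to 0.230% in the others. After normalization the same sums were 2170 to 2186 CPM and 2221 to 2760 CPM, so the direction of the summed level depends on the scaling.

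**Figure D2:**
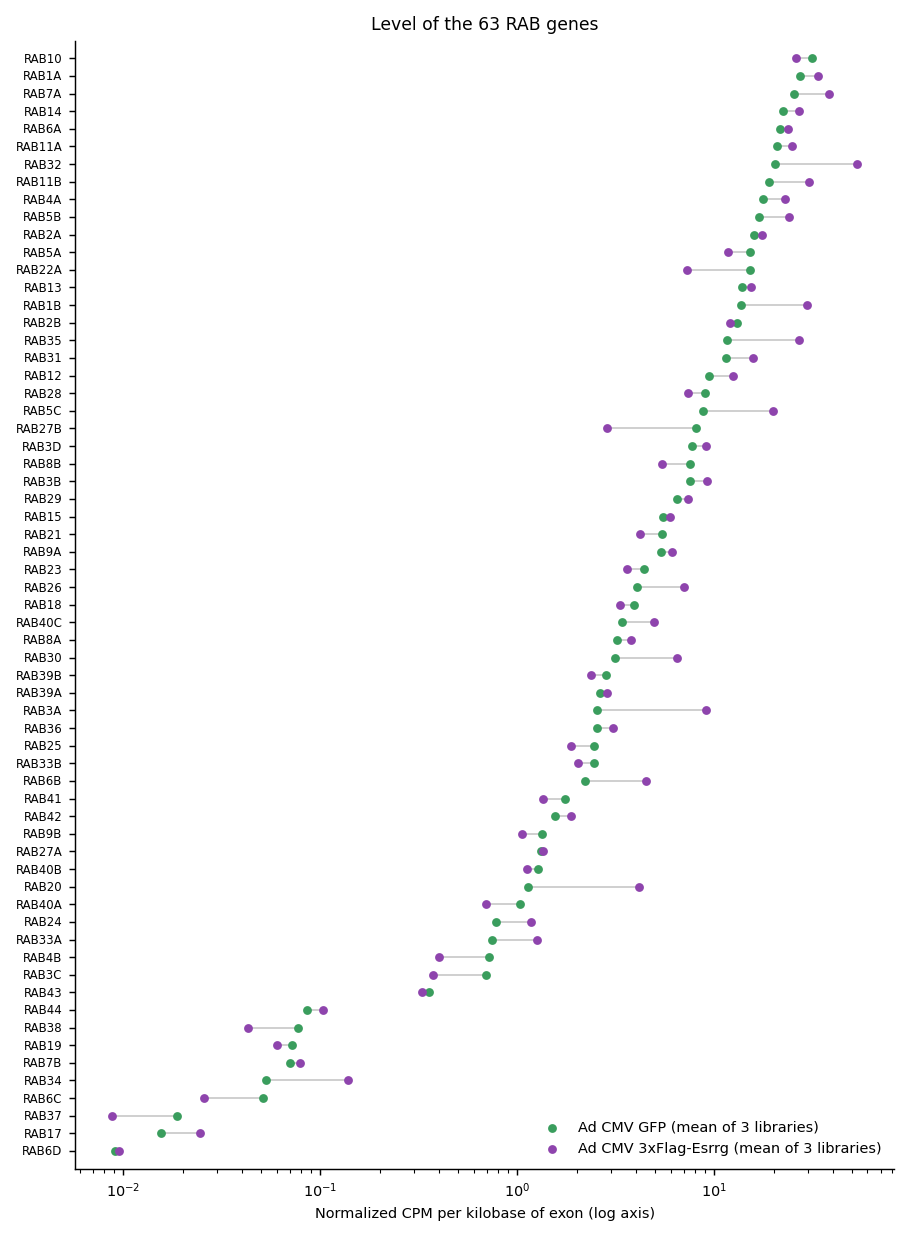
Mean level of all 63 RAB genes, in normalized CPM per kilobase of exon on a log axis, with Ad CMV GFP in green and Ad CMV 3xFlag-*Esrrg* in purple (3 libraries each, no error shown). Genes are ordered by the control level, from *RAB10* at 31.5 down to the 7 genes under the filter. *RAB32*, *RAB35*, *RAB1B* and *RAB3A* lie far to the right of their control value and *RAB22A* and *RAB27B* far to the left.

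Exocytosis held the widest spread. Of 11 tested members 2 rose and 2 fell (18.2% each), against 25.9% and 12.4% of protein-coding genes. The median log2 fold change of these members was 0.15. *RAB3A* (ENSG00000105649, chr19:18196784-18204042, minus strand, GRCh38) encodes the main RAB of synaptic vesicles. Its levels were 3.83, 5.40, 4.35, 11.3, 17.5 and 19.8 CPM. Each library with Ad CMV 3xFlag-*Esrrg* was above every control library, and the log2 fold change was 1.84 (SE 0.21, adjusted p = 1.1e-04), a 3.58-fold rise. Its paralogue *RAB3C* (ENSG00000152932, chr5:58582221-58859394, plus strand), also a synaptic vesicle RAB, moved in the opposite direction. It had 7.63, 6.11, 6.25, 3.59, 3.68 and 3.55 CPM, with the treated libraries close together and all below the controls (log2 fold change -0.88, SE 0.15, adjusted p = 8.9e-04). *RAB3B* and *RAB3D*, which act in regulated secretion, had log2 fold changes of 0.29 (adjusted p = 0.03) and 0.23 (adjusted p = 0.18) and were not called.

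The promoters of this pair, whose genes moved apart, are shown from the RefSeq annotation of GRCh38.p14 in the direction of transcription. Each window runs from 250 bases before to 50 bases after the start, with CG dinucleotides in capitals. The *RAB3A* window (chr19:18203993-18204292, minus strand) has a GC content of 69.7% with 30 CG dinucleotides, and that of *RAB3C* (chr5:58582825-58583124, plus strand) 63.3% with 23. Not every pair with changes of opposite sign has this order. The window of *RAB5A* (log2 fold change -0.37) has 69.3% with 32, and that of *RAB5C* (1.19) 68.3% with 29.
RAB3A: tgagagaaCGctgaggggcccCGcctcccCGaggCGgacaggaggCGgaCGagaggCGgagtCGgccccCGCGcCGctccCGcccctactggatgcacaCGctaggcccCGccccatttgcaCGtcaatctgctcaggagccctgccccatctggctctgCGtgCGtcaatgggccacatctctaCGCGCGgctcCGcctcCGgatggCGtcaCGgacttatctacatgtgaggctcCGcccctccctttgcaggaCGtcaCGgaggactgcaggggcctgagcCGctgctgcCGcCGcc
RAB3C: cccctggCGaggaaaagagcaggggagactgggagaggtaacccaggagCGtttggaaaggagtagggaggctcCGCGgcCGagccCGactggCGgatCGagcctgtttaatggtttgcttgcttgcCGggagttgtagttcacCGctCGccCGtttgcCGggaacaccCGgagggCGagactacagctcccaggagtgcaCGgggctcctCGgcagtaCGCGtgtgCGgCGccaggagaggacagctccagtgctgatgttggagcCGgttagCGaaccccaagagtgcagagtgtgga

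*RAB27B* (ENSG00000041353, chr18:54717860-54895516, plus strand), which docks dense-core vesicles and secretory lysosomes, had the largest fall of the family. Its levels were 60.6, 62.0, 51.8, 25.4, 19.1 and 16.6 CPM. No treated library reached a control library, and the log2 fold change was -1.51 (SE 0.15, adjusted p = 5.4e-05), a 2.86-fold fall. *RAB27A*, its close paralogue, had a log2 fold change of 0.04 (SE 0.10, adjusted p = 0.76). *RAB26* (ENSG00000167964, chr16:2140803-2154165, plus strand), a RAB of secretory granules and synaptic vesicle turnover, rose from 8.85 to 10.9 CPM in the control libraries to 14.3 to 21.3 CPM (log2 fold change 0.80, SE 0.15, adjusted p = 0.0018). That call was lost in 4 of 16 alternatives, among them the correction for GC content and length (0.31) and the fit with the share of unassigned reads. *RAB10* and *RAB8B*, which serve exocytosis toward the plasma membrane, had log2 fold changes of -0.28 (adjusted p = 0.031) and -0.48 (adjusted p = 0.0019), under the fold cutoff.

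**Figure D3:**
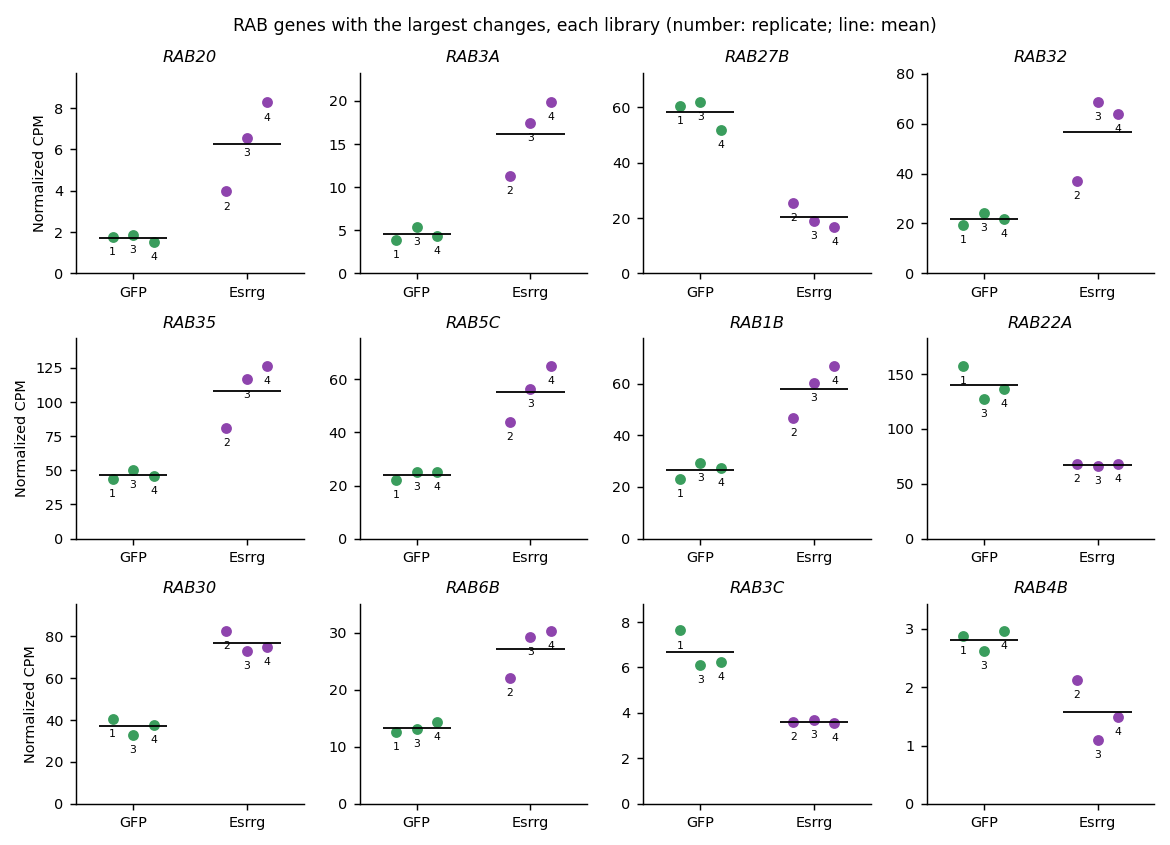
Normalized CPM (y axis, from 0) in every library of the 12 called RAB genes with the largest changes among those with a mean of at least 50 counts. Green points are Ad CMV GFP, purple points Ad CMV 3xFlag-*Esrrg*, numbers are replicates and lines group means. In all 12 panels the groups are apart. Of the treated libraries, replicate 2 lies nearest the controls in every panel but those of *RAB30* and *RAB3C*.

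Among early endosome RABs (median log2 fold change 0.44), 2 of 7 rose (28.6%) and 1 fell (14.3%), against 25.9% and 12.4% of protein-coding genes. *RAB20* (ENSG00000139832, chr13:110523066-110561722, minus strand), known for endosome and phagosome maturation, had the largest rise of the family. Its levels were low, with 1.77, 1.84, 1.51, 3.97, 6.57 and 8.28 CPM from 50 to 282 counts. The treated libraries were widely spread but all exceeded the controls (log2 fold change 1.88, SE 0.26, adjusted p = 2.8e-04). *RAB5C* (ENSG00000108774, chr17:42124978-42155044, minus strand) is 1 of the 3 RAB5 genes, which drive early endosome fusion. It had 22.2, 25.2, 24.9, 43.8, 56.5 and 64.9 CPM, a log2 fold change of 1.19 (SE 0.14, adjusted p = 1.1e-04), without overlap. Of its exon bases 28.8% also belong to another annotated gene on the same strand, so part of its reads may have been counted as ambiguous.

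*RAB5A*, the best known RAB5, was not called. It had 58.4, 55.3, 58.1, 43.3, 42.7 and 46.8 CPM, lower in every treated library but under the fold cutoff (log2 fold change -0.37, SE 0.09, adjusted p = 0.0059). *RAB5B* had a log2 fold change of 0.51 (adjusted p = 0.0075). *RAB22A* (ENSG00000124209, chr20:58309715-58367507, plus strand), which acts on endosome sorting and recycling, fell. Its levels of 158, 127, 136, 68.4, 65.8 and 67.6 CPM gave a log2 fold change of -1.06 (SE 0.10, adjusted p = 4.7e-05), a 2.09-fold fall. The treated libraries lay close together, all far below the controls. *RAB31*, the closest relative of *RAB22A*, had a log2 fold change of 0.44 (adjusted p = 0.0036), and *RAB21*, an endosomal RAB of integrin traffic, had -0.37 (adjusted p = 0.0049).

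Of the Golgi RABs (median log2 fold change 0.13), 3 of 13 rose (23.1%) and none of the 13 fell, against 25.9% and 12.4% of protein-coding genes. With 13 genes, the absence of falls is not read further. *RAB1B* (ENSG00000174903, chr11:66268590-66277492, plus strand), a RAB of transport from the endoplasmic reticulum to the Golgi, had 23.1, 29.3, 27.4, 46.6, 60.5 and 66.8 CPM. Treated libraries were all above controls (log2 fold change 1.12, SE 0.14, adjusted p = 1.7e-04). *RAB1A*, which serves the same step, was not called, with 93.0, 86.9, 90.3, 96.8, 118 and 118 CPM and a log2 fold change of 0.30 (SE 0.10, adjusted p = 0.034), under the fold cutoff and negative with library size as the only scaling. Genes on the opposite strand cover 43.8% of the exon bases of *RAB1B* and 22.9% of those of *RAB1A*, and whether the counting used strand is not given in the sources used here. *RAB30* (ENSG00000137502, chr11:82973133-83071923, minus strand), a RAB of Golgi structure, rose from 40.5, 33.1 and 37.9 CPM to 82.6, 73.1 and 75.1 CPM (log2 fold change 1.05, SE 0.10, adjusted p = 5.5e-05). It is the 1 member with GC content under 40% among those that rose.

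*RAB6B* (ENSG00000154917, chr3:133824235-133895882, minus strand), the neuronal form of the Golgi RAB RAB6, had 12.5, 13.2, 14.3, 22.1, 29.3 and 30.3 CPM. The groups did not overlap, and the log2 fold change was 1.03 (SE 0.13, adjusted p = 1.9e-04). It was 0.58 with the share of unassigned reads as a covariate, just under the fold cutoff. *RAB6A*, the widely expressed form, had a log2 fold change of 0.13 (adjusted p = 0.29). *RAB2A* and *RAB2B*, which act between the endoplasmic reticulum and the Golgi and on autophagosomes, had 0.13 (adjusted p = 0.34) and -0.12 (adjusted p = 0.40). *RAB43* shares 90.9% of its 31-base words with transcripts of other genes, so its level is uncertain and it is not read further.

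Recycling RABs (median log2 fold change 0.26) gave 2 higher (25%) and 1 lower (12.5%) of 8 tested, against 25.9% and 12.4% of protein-coding genes. *RAB35* (ENSG00000111737, chr12:120095099-120117502, minus strand), a RAB of fast endosomal recycling and neurite outgrowth, had 43.5, 50.6, 45.9, 81.0, 117 and 126 CPM. All treated libraries exceeded all controls (log2 fold change 1.21, SE 0.15, adjusted p = 1.7e-04). An antisense gene covers 14.8% of its exon bases. *RAB11B* (ENSG00000185236, chr19:8389981-8404434, plus strand), a recycling endosome RAB enriched in brain, rose from 40.2 to 46.8 CPM to 53.7 to 83.7 CPM (log2 fold change 0.67, SE 0.15, adjusted p = 0.0038). This call was lost in 6 of 16 alternatives, among them the fit without Ad CMV 3xFlag-*Esrrg* replicate 4 (0.53). *RAB11A*, the best known recycling endosome RAB, had 117, 114, 124, 119, 153 and 152 CPM. Its groups overlapped (log2 fold change 0.26, SE 0.11, adjusted p = 0.084), and its sign turned with library size as the only scaling. *RAB4B* (ENSG00000167578, chr19:40778216-40796942, plus strand), of the fast recycling pair *RAB4A* and *RAB4B*, was low, with 81, 81, 98, 57, 37 and 51 counts. In CPM the control libraries lay between 2.62 and 2.96 and the others between 1.10 and 2.13 (log2 fold change -0.85, SE 0.24, adjusted p = 0.014). It shares 61.1% of its 31-base words with transcripts of other genes, read-through genes among them, and its call was lost in 3 of 16 alternatives, among them the fits without Ad CMV GFP replicate 4 (adjusted p = 0.054) and without Ad CMV 3xFlag-*Esrrg* replicate 3 (adjusted p = 0.068).

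Late endosome and lysosome RABs (median log2 fold change 0.19) gave 2 higher of 7 tested (28.6%) and none of the 7 lower. Among protein-coding genes 25.9% were higher and 12.4% lower. Both RAB calls were close to the fold cutoff. *RAB7A* (ENSG00000075785, chr3:128693669-128825942, plus strand), the central RAB of late endosomes, autophagosomes and lysosomes, had 174, 185, 189, 222, 293 and 307 CPM. The treated libraries were all higher (log2 fold change 0.59, SE 0.13, adjusted p = 0.0037). The value sits at the fold cutoff, and the call was lost in 9 of 16 alternatives. Among these were the fits without Ad CMV GFP replicate 1 (0.55) and without Ad CMV 3xFlag-*Esrrg* replicates 3 (0.54) and 4 (0.50). *RAB24* (ENSG00000169228, chr5:177301198-177303744, minus strand), an autophagy-related RAB, had 39 to 90 counts a library and a log2 fold change of 0.60 (SE 0.22, adjusted p = 0.04). Of its exon bases 44.8% also belong to *MXD3* on the same strand, and its call was lost in 10 of 16 alternatives. Leaving out Ad CMV GFP replicate 1 or 4 or Ad CMV 3xFlag-*Esrrg* replicate 3 or 4 was enough, with adjusted p from 0.087 to 0.14. *RAB12* and *RAB9A*, which act on receptor degradation and on endosome-to-Golgi transport, had log2 fold changes of 0.42 (adjusted p = 0.0066) and 0.19 (adjusted p = 0.22).

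*RAB32* (ENSG00000118508, chr6:146543833-146554953, plus strand), of lysosome-related organelles and mitochondria-associated membranes, had 19.3, 24.2, 21.7, 37.1, 68.9 and 64.0 CPM. Replicate 2 was the lowest of the treated libraries and still above all controls (log2 fold change 1.38, SE 0.20, adjusted p = 3.6e-04), a 2.61-fold rise. With the share of unassigned reads as a covariate, the log2 fold change of *RAB32* was 0.51, under the fold cutoff, and the call was lost. *RAB29*, the other tested member of this group and a RAB that acts with LRRK2 at the Golgi and lysosomes, had 25.6, 25.3, 25.3, 25.8, 31.2 and 29.4 CPM. Its log2 fold change was 0.18 (SE 0.10, adjusted p = 0.16), negative with library size as the only scaling. *RAB39B*, an endosomal and autophagic RAB, had 10.0, 9.47, 9.49, 7.86, 7.10 and 9.39 CPM (log2 fold change -0.25, SE 0.13, adjusted p = 0.15). Of the genes linked to Parkinson disease, *RAB32* was thus called among the 3 named, though not in that fit.

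The 3 cilium RABs had no call. *RAB23*, a regulator of Hedgehog signalling, and *RAB28* had log2 fold changes of -0.29 each (adjusted p = 0.041 and 0.026), and *RAB34* had the highest value of the 39 genes without a call, 1.39 (SE 0.55, adjusted p = 0.059). Of the 5 members in other roles, *RAB40A* (ENSG00000172476, chrX:103499130-103519489, minus strand), a RAB with a SOCS box that recruits a ubiquitin ligase, was called lower. It shares 19.5% of its 31-base words with transcripts of other genes. It had 77 to 153 counts a library, a log2 fold change of -0.59 (SE 0.19, adjusted p = 0.025) and lost the call in 9 of 16 alternatives. Among these were the 5 fits that each left out a library other than Ad CMV 3xFlag-*Esrrg* replicate 2, with adjusted p from 0.051 to 0.11. *RAB40C* had 0.53 (adjusted p = 0.0076). Without the fold cutoff, 19 RAB genes were higher and 12 lower, against 37.6% and 22.4% of protein-coding genes. Across all roles, 14 genes passed the adjusted p but not the fold cutoff. Those nearest to it were *RAB40C*, *RAB5B* and *RAB31* on the higher side and *RAB8B* on the lower side.

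Paralogues of a family did not all move alike. For the 13 families with at least 2 tested members, the share of each gene in the summed level per kilobase was computed in every library. In 11 families at least 1 share did not overlap between the groups (exact permutation test, two-sided, p = 0.1, the smallest that 3 against 3 can give), the exceptions being RAB9 and RAB33. Levels without overlap were common in these libraries, in 41.9% of protein-coding genes upwards and 28.4% downwards, and shares within other gene families were not computed, so nothing particular to the RAB families is read from this count. *RAB3A* made up 13.7% ± 2.03 of the RAB3 level in the control libraries and 28.0%, 33.0% and 35.7% in the others, while *RAB3D* went from 41.9% ± 1.93 to 32.8% ± 1.58 (SD, n = 3). The shift of *RAB3D* depended on the scale, since its share of the summed normalized counts went from 24.1% to 22.4% with overlapping groups (exact permutation p = 0.4, two-sided). *RAB27A* went from 13.6%, 13.5% and 14.8% of the RAB27 level to 27.5%, 32.8% and 37.7%. The level of *RAB27A* itself had a log2 fold change of 0.04, that of *RAB27B* -1.51.

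In the RAB5 family, *RAB5A* went from 37.3% ± 1.86 to 21.4% ± 2.66 and *RAB5C* from 21.4% ± 0.882 to 35.8% ± 1.73 (SD, n = 3 each), so their order was exchanged, while *RAB5B* had 41.2% ± 0.982 and 42.8% ± 0.946. *RAB1A* went from 66.6% ± 3.43 to 53.2% ± 1.97 of the RAB1 level. *RAB6B* went from 9.22% ± 0.654 to 15.8% ± 1.04 of the RAB6 level, although *RAB6A* also shares 35.9% of its 31-base words with other genes. In the RAB8 family, *RAB8A* held 29.8% ± 4.13 and 41.0% ± 4.25, and in the RAB40 family *RAB40C* held 59.7% ± 1.85 and 72.9% ± 3.65. Smaller shifts without overlap were those of *RAB11A* (52.3% to 45.4%), *RAB2A* (54.8% to 59.1%), *RAB4A* (96.1% to 98.2%) and *RAB39A* (48.1% to 54.6%), with SDs of 0.286 to 3.23.

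**Figure D4:**
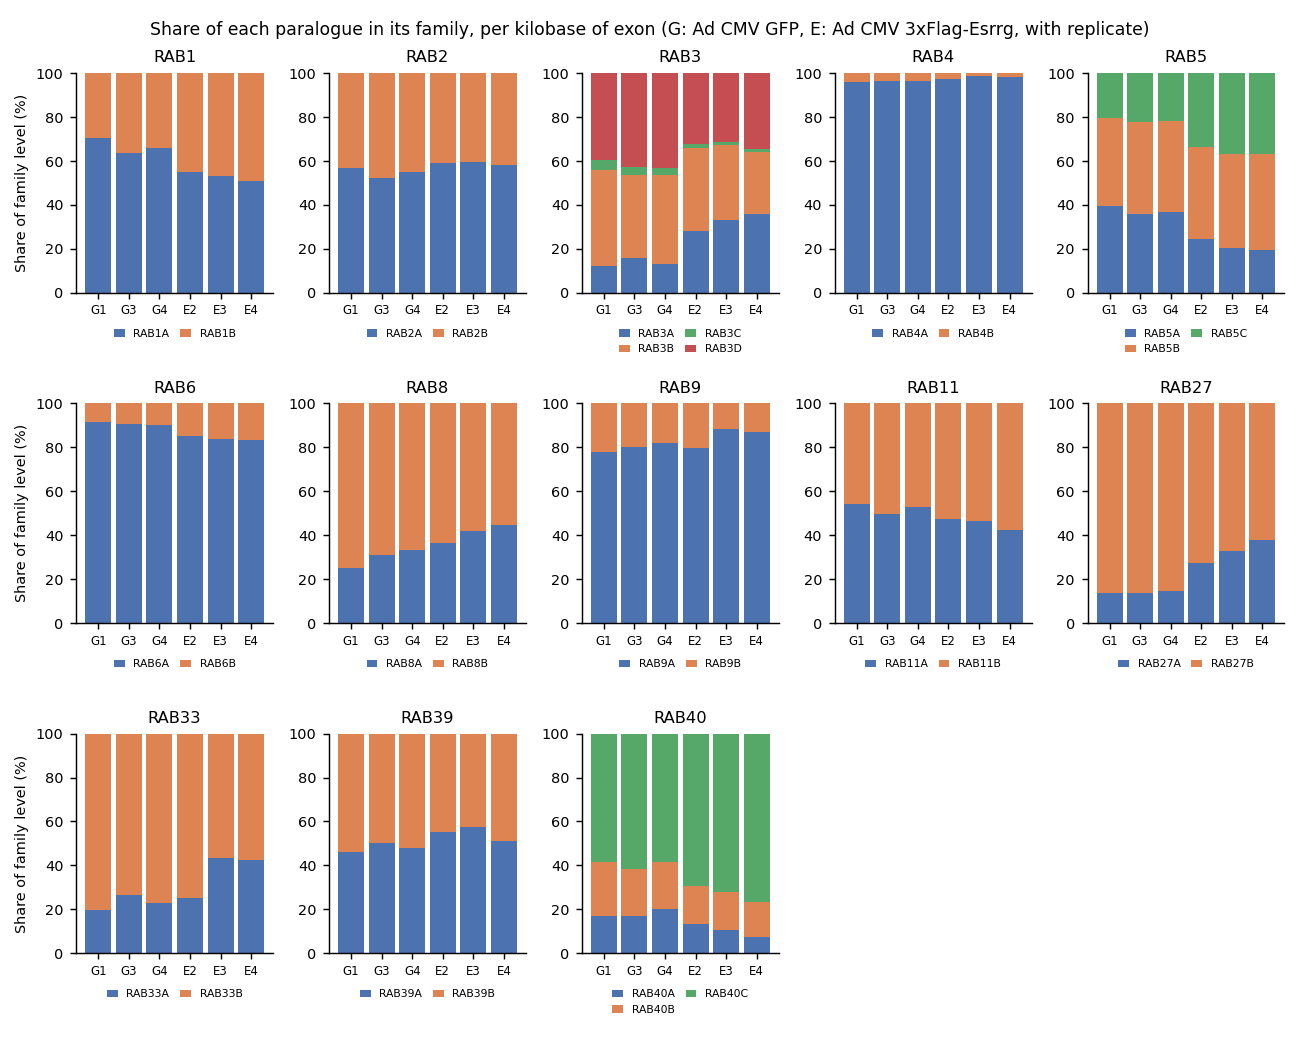
Share of each paralogue in its family, in percent of the summed CPM per kilobase of exon, as stacked bars from 0 to 100 for each of the 6 libraries (G1, G3 and G4 with Ad CMV GFP, E2, E3 and E4 with Ad CMV 3xFlag-*Esrrg*). *RAB3A*, *RAB5C*, *RAB1B*, *RAB6B* and *RAB27A* take a larger part of their family in every treated library.

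The change of a RAB gene went with its base composition. Among the 23 tested RAB genes with a GC content of at least 50% in their longest transcript, 10 rose and 1 fell (median log2 fold change 0.60). Among the 17 with 40% to 50%, 1 rose and 2 fell (median 0.11), and among the 16 below 40%, 1 rose and 2 fell (median -0.10). Protein-coding genes as a whole showed the same order of medians, with 0.46, 0.01 and -0.28 in these bins. Of them, 41.9%, 17.6% and 5.83% were higher and 6.61%, 14.3% and 22.1% lower. For RAB genes these shares were 43.5%, 5.88% and 6.25% higher and 4.35%, 11.8% and 12.5% lower. The RAB calls thus showed no clear step between the bins under 50%. Across the 56 RAB genes, log2 fold change and GC content had a Pearson r of 0.54 and a Spearman rho of 0.53. Across the 13746 protein-coding genes they had 0.33 and 0.40. The genes share the same 6 libraries and are not independent replicates, so these are descriptions. The median GC content was 57.5% for the genes that rose, 40.1% for those that fell and 43.2% for those not called.

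Paralogues were also compared by base composition. The difference in GC content was small in some families, as in RAB39 (43.6% and 43.2%) and RAB9 (39.8% and 39.5%). Other gene families were not compared in this way. The family member with the highest GC content had a higher log2 fold change than the one with the lowest in 10 of 13 families, and in 9 once the libraries had been corrected for GC content and length. After that correction, 8 of the 12 RAB genes that rose (*RAB20*, *RAB3A*, *RAB32*, *RAB35*, *RAB5C*, *RAB1B*, *RAB30* and *RAB6B*) and all 5 that fell were still called, and *RAB25* (-0.66) and *RAB43* (-0.64), whose level is uncertain, were newly called lower. These made 8 higher and 7 lower RAB genes, where 18% and 13.2% of protein-coding genes were higher and lower. *RAB3A* then had a log2 fold change of 1.45, *RAB5C* 0.80, *RAB30* 1.33 and *RAB27B* -1.31. *RAB11B*, *RAB26*, *RAB24* and *RAB7A* were no longer called. The correction was made in each library, so it also removes any treatment effect that goes with GC content or length. It cannot separate such an effect from a bias of the libraries, and the cause of the lost calls was not tested. In these libraries the share of reads assigned to no gene differs between the groups as well, and its part in the relation to GC content was not tested.

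**Figure D5:**
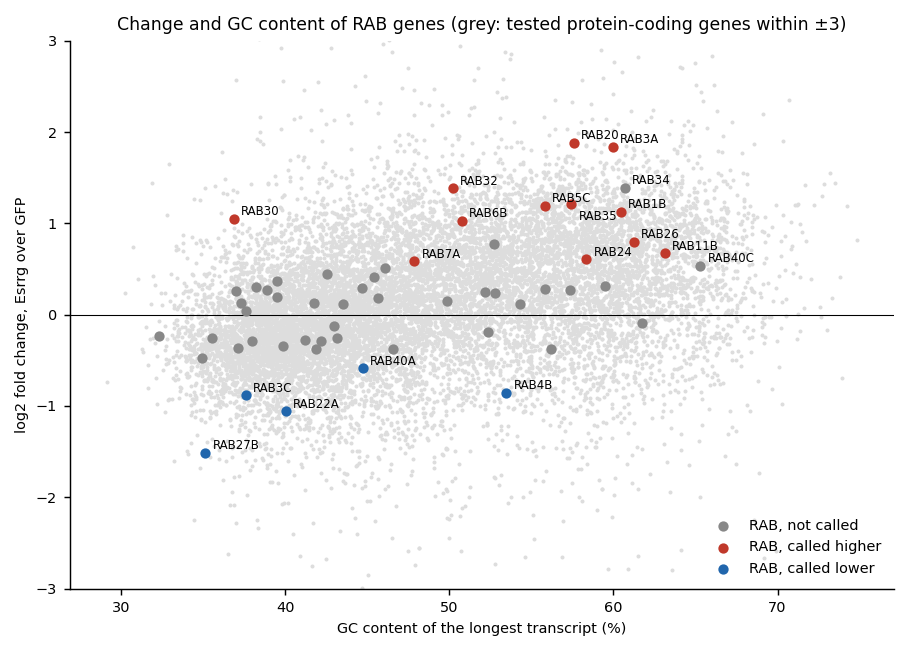
Log2 fold change (y axis) against the GC content of the longest transcript in percent (x axis) for the 56 tested RAB genes, over the tested protein-coding genes in grey (those beyond 3 in either direction are not drawn). Red points are RAB genes called higher, blue points called lower and dark grey points not called. Red points lie mostly at a GC content of 50% or more, with *RAB30* and *RAB7A* to the left of it.

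Promoter windows of 300 bases were found in RefSeq for 50 of the 63 genes (71 windows). The median count of CG dinucleotides was 14 over all 35116 windows, 30 for the 13 windows of genes that rose, 20 for the 6 windows of genes that fell and 23 for the 46 of genes not called. ERRγ is known to bind an extended half-site. Its letters TNAAGGTCA, searched on both strands, were in 0 of the 71 RAB windows and in 0.951% of all windows. The shorter AAGGTCA, which the longer motif contains, was in 2 of 71 windows (2.82%) and in 3.92% of all. Those 2 were the windows of *RAB17*, which was not tested, and *RAB24*. The *RAB24* window (chr5:177303670-177303969, minus strand) is shown because it is the 1 match among called genes, with the match, read on the opposite strand, in capitals.
RAB24: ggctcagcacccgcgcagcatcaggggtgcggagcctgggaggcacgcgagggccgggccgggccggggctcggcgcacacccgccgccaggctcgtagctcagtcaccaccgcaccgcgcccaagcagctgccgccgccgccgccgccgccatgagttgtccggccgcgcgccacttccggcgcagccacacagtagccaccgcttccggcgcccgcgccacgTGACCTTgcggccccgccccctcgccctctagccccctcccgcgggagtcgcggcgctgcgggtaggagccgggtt

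The genes that load, unload and carry RAB proteins changed in both directions. Of 121 tested RAB cycle genes 20 were higher and 16 lower, with a median log2 fold change of 0.04. These are 16.5% and 13.2%, where 25.9% and 12.4% of protein-coding genes were called. The split depended on the processing, with 2 higher and 38 lower under library size only and 27 and 8 with DESeq2. The stability of the calls of single cycle genes was not examined. *GDI2*, a widely expressed GDI, had a log2 fold change of 0.26 (adjusted p = 0.10). The escort protein genes *CHM* and *CHML* had -0.57 (adjusted p = 0.0021) and -0.36 (adjusted p = 0.053), just under and under the fold cutoff, and *RABGGTB*, the catalytic subunit of the transferase, had 0.34 (adjusted p = 0.021). *RABGGTA* was listed at 0 in all libraries, which is not read as absent expression, and *PPM1H*, a phosphatase of RABs, was under the filter.

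*LRRK2*, listed with the cycle genes as the RAB kinase, fell. Its levels were 13.6, 13.5, 14.9, 9.99, 7.61 and 6.84 CPM (log2 fold change -0.79, SE 0.15, adjusted p = 0.0015), with every treated library below every control. Of its 14 known RAB substrates, all tested, 3 were higher (*RAB3A*, *RAB5C* and *RAB35*) and 1 was lower (*RAB3C*), with a median log2 fold change of 0.24. These are 21.4% and 7.14%, where 25.9% and 12.4% of protein-coding genes and 21.4% and 8.93% of all tested RAB genes were called. A link between the level of *LRRK2* and those of its substrates was not tested.

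Of 34 tested GEFs, 6 were higher (17.6%) and 2 lower (5.88%), where 25.9% and 12.4% of protein-coding genes were. *SBF1*, a GEF with a DENN domain, had a log2 fold change of 0.93 (SE 0.12, adjusted p = 2.1e-04) and *RIN3*, a RAB5 family GEF, 0.88 (SE 0.11, adjusted p = 1.8e-04). *DENND4C* and *DENND4A*, GEFs of RAB10, had -0.65 (adjusted p = 6.1e-04) and -0.64 (adjusted p = 7.3e-04). Of 34 tested GAPs, 5 were higher and 5 lower (14.7% each). At one end were *TBC1D9B* (0.84) and *TBC1D25* (0.69), a GAP linked to autophagy. At the other were *TBC1D10C* (-0.85) and *TBC1D15* (-0.76), a RAB7 GAP on mitochondria. Of 46 tested effectors, 8 were higher and 8 lower (17.4% each). Each of these lists had a smaller share of higher genes than the 25.9% of protein-coding genes. The share lower was above 12.4% for GAPs and effectors but not for GEFs. The largest change of the cycle genes was that of *RPH3A*, which encodes rabphilin, an effector of RAB3A and RAB27 on synaptic vesicles. It had 6.03, 8.08, 7.92, 1.20, 1.99 and 2.14 CPM, a log2 fold change of -2.03 (SE 0.22, adjusted p = 8.4e-05), opposite in sign to *RAB3A* and the same as *RAB27B* and *RAB3C*. *RABEP2*, which encodes an effector of RAB5 and RAB4, rose with a log2 fold change of 1.01 (SE 0.12, adjusted p = 1.1e-04), and *SYTL5*, a RAB27 effector, rose with 0.88 (SE 0.11, adjusted p = 1.7e-04). *MYO5C*, a motor of RAB10 and RAB8 membranes, fell with -0.98 (SE 0.28, adjusted p = 0.014).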

How the data were processed

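RNA sequencing was analysed for 6 libraries of total RNA, depleted of ribosomal RNA and prepared with a directional kit. Groups and replicate numbers came from the sample labels. The authors deposited raw counts per Ensembl gene. The submitters' processing notes name CASAVA, Trim Galore 0.6.7, STAR 2.7.9a, HTSeq 0.11.3, DESeq2 and GRCh38. The annotation release and strand setting are not given in the sources used here. Identifiers were matched to GENCODE 44, in which 90.1% were found, and the others held 0.153% of the counts. Between 24969759 and 40859666 counts per library fell on genes.

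The test was edgeR 4.0.16 in R 4.3.3 (filterByExpr, TMM factors, quasi-likelihood test, Benjamini-Hochberg adjustment over 24500 genes). A standard error is the size of the log2 fold change divided by the root of its F statistic, and CPM use TMM factors. Levels per kilobase use the union of exons, and GC content the longest transcript. Paralogue shares were compared by exact permutation. The alternatives were DESeq2 1.42.0, RLE factors, library size only, no count filter, a minimum of 10 counts in every library, dropping the fold cutoff or setting it to 2-fold, restriction to protein-coding genes, leaving out each library, the replicate number as a block, a GC and length correction (mgcv 1.9.3), both together, the share of reads assigned to no gene as a covariate, and shares from normalized counts. RefSeq windows ran from 250 bases before to 50 after a start. The scripts were tested on simulated data.

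The RAB genes, the lists of roles and of RAB cycle genes, and the genes to be named were chosen with earlier results of these data known. The rule named all called RAB genes, gave library values for the 12 largest changes among those averaging 50 counts or more, and added *RAB1A*, *RAB5A*, *RAB7A*, *RAB11A*, *RAB29*, *RAB32*, *RAB39B*, the named lipid anchor genes, and the 2 largest called changes in each direction of the GEF, GAP and effector lists. A gene that the rule covers is not reported here. Other members not called are named as paralogues or for their role. The mouse libraries of the study were not analysed here.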

Additional observations from a re-analysis of the deposited data

How the results depend on the processing

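The main counts were 12 higher and 5 lower RAB genes, 4234 higher and 4117 lower genes in all, 20 higher and 16 lower RAB cycle genes, and a median RAB log2 fold change of 0.21. Leaving out each library in turn gave 9 to 19 higher and 3 to 5 lower RAB genes, 14 to 31 higher and 12 to 17 lower cycle genes, 3710 to 5820 higher and 2895 to 5141 lower genes in all, and medians of 0.13 to 0.42. The highest values came without Ad CMV 3xFlag-*Esrrg* replicate 2, for all of these but the lower cycle genes. With library size as the only scaling, the median over every tested gene shifted from -0.10 to -0.42. That setting gave 13 lower RAB genes, a RAB median of -0.12, 2200 higher and 7566 lower genes in all, and 2 higher and 38 lower cycle genes, and the share of higher calls was 22.5% against 50.7%. It reversed the sign of *RAB1A* (-0.028), *RAB11A* (-0.075) and *RAB29* (-0.14), none of them called above. With the share of unassigned reads as a covariate there were 6 higher and 3 lower RAB genes with a median of -0.11, 1773 higher and 1323 lower genes in all, and 5 higher and 7 lower cycle genes, and *RAB11A* (-0.099) and *RAB29* (-0.037) changed sign. Protein-coding genes alone gave 2814 higher and 2468 lower genes in all, 11 higher cycle genes and a RAB median of 0.072. DESeq2 and RLE factors each gave 8 lower cycle genes, the GC and length correction 3 higher ones. Without a fold cutoff, 19 higher and 12 lower RAB genes and 40 higher and 33 lower cycle genes passed, and a 2-fold cutoff left 2 lower RAB genes, 1952 higher and 1982 lower genes in all, and 1 higher and 1 lower cycle gene. As shares of normalized counts, the change in percentage points was 22.9 for *RAB27A* (18.7 per kilobase), 5.82 for *RAB3A* (18.6), 5.15 for *RAB33A* (13.9), -12.4 for *RAB5A* (-15.9) and -7.72 for *RAB6A* (-6.62). Beyond the smaller gene set of protein-coding genes alone and the cutoffs themselves, the cause was not tested.

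The groups share the replicate numbers 3 and 4, which the labels do not tie to a shared batch, and the deviations of same-numbered libraries from their group means had correlations of 0.075 and -0.0001. Numbers 1 and 2 each occur in 1 group only, so a fit with the number as a block compares the groups by replicates 3 and 4 alone. Ad CMV GFP replicate 1 and Ad CMV 3xFlag-*Esrrg* replicate 2 then add nothing to the group difference. With that replicate block, 15 RAB genes were higher and 5 lower. The median was 0.27, where that of protein-coding genes was 0.16, and 25 cycle genes were higher and 20 lower. The block together with the GC and length correction gave 11 higher and 5 lower RAB genes and 4 higher cycle genes, and *RAB3C* (-0.49) lost its call. Low counts limit the 7 genes under the filter and, among those tested, *RAB34*, *RAB44*, *RAB33A* and *RAB43*, with mean counts of 10 to 53.7 and standard errors of 0.55 to 0.27, and *RAB24* and *RAB4B* among those called.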
